A study of Homo sapiens with 18 samples.

Results

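The ID genes and the feedback genes of BMP-SMAD signalling were followed as a set of 10 genes among the 18670 genes of the deposited count table. The set was defined by symbol: the 4 inhibitors of DNA binding ID1, ID2, ID3 and ID4, and the 6 feedback members SMAD6, SMAD7, SMAD9, NOG, BAMBI and BMPR2. It was proposed with part of the outcome known, namely that ID1 and ID3 were lower with S100A9 overexpression and ID3 much lower with Adavivint. For those comparisons the members' values are therefore a description and carry no test. Members were tested in the U937 knockdown and in overexpression under Adavivint. In the latter ID3 is described, because both groups had the drug. Between the lines ID1 and ID3 are described and the others tested, because the THP-1 empty vector libraries of that comparison are the controls that chose them. For the difference between both Adavivint effects ID1 and ID3 are described and the others tested, although that difference is built from the descriptive comparisons.

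RNA was sequenced from 2 human cell lines with monocytic features, U937 and THP-1, in 6 groups of 3 libraries. U937 cells carried either an empty lentiviral vector or shS100A9, a vector that knocks down S100A9. THP-1 cells carried an empty vector or an S100A9 overexpression vector, and each was sequenced without drug and after 36 h in 1 µM Adavivint, a small molecule developed as an inhibitor of Wnt signalling. All groups had been transduced with lentivirus and selected in puromycin at 2 µg/mL from 48 h after transduction for 24 h or longer. The labels name an empty vector, not a non-targeting hairpin, as the U937 control. They give neither the hairpin sequence, nor the promoter of the overexpression vector, nor a separate drug vehicle. They also do not say whether replicates were separate cultures, so every p below measures only the spread between these libraries, which may be technical.

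Bone morphogenetic proteins (BMPs) bind paired type I and type II receptors such as BMPR2. The receptors phosphorylate SMAD1, SMAD5 and SMAD9, which join SMAD4 and enter the nucleus. The ID genes are classical direct targets of this complex. ID proteins have a helix-loop-helix fold but no DNA-binding region, and they hold E proteins such as TCF3 away from DNA. In blood cells they are known for restraining differentiation and lineage choice. SMAD6 and SMAD7 are inhibitory SMADs, BAMBI is a receptor-like protein without a kinase and NOG (noggin) is a secreted trap for BMP ligands. All of these are induced by the pathways they restrain in many cell types.

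Library totals ran from 38.4 to 84.4 M counts. Values are CPM, a gene's counts per M library counts (M for mega), scaled within each line by the trimmed mean of M values (TMM), so a U937 level and a THP-1 level were scaled separately. S100A9 matched the labels. It was 27.6-fold lower in the knockdown (adjusted p = 0.0205, edgeR). It was 4.36-fold higher with overexpression (adjusted p = 3.2e-05) and 7.67-fold higher with overexpression under Adavivint (adjusted p = 1.8e-05). S100A9 was also higher with the drug itself. The log2 fold changes were 1.11 (SE 0.21) in empty vector cells and 1.93 (SE 0.19) in overexpressing cells. Vector comparisons with and without Adavivint therefore span different S100A9 levels. The part of that difference in the members' values was not tested. All 15 monocyte and myeloid markers examined had counts in all groups, with a summed level of 1079 to 1787 CPM. Of those tested, 3 of 14 were lower in the knockdown (CD68, FCER1G and ELANE), where 1.77% of all genes were called, and 3 of 15 were higher and 5 lower with overexpression, where 28.0% were. With Adavivint 5 of 15 were higher and 8 lower in each vector group, where 85.3% and 84.7% of all genes were called. Their part in the members' values was not tested. In U937, empty vector 2 and shS100A9 3 stood apart from the other libraries of their groups. A chi-square per degree of freedom over genes was 135 and 142 for the pairs with empty vector 2 against 8.05 for the other pair, and 167 and 225 for the pairs with shS100A9 3 against 13.1. Member results that rest on these libraries are given with and without them. Counts of called marker and list genes are given only with them.

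Positions below are those of GENCODE 29 on GRCh38; no source used here states the build behind the counts. ID1 spans chr20:31605283-31606515 on the plus strand, ID2 chr2:8678845-8684453 on the plus strand and ID3 chr1:23557918-23559794 on the minus strand. SMAD6 lies at chr15:66702228-66782848, on the plus strand. ID2 shares its locus with the antisense gene ID2-AS1, and SMAD9 with SMAD9-IT1; whether counting used strand is not given, so reads from such partners cannot be told apart.

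RefSeq promoter windows (GRCh38.p14, 250 bases before to 50 after a gene's start) were found for 9 of the 10 members, 11 windows in all because SMAD7 has 3; NOG had none. The stretches below are shown for ID1 and ID3, the members with the largest differences in overexpression, and for SMAD6, the feedback gene with the largest decrease there. Each runs 5′ to 3′ on the gene's own strand. Capitals mark GGAGCC, a GC-rich letter run described for the BMP SMADs, or CAGAC, the run described for SMAD3 and SMAD4, read on either strand. The ID1 stretch (chr20:31605039-31605282, plus strand) and the SMAD6 stretch (chr15:66701986-66702227, plus strand) end before the first annotated exon. The ID3 window lies in an exon of a longer transcript, so only 30 bases around its matches are shown (chr1:23559642-23559671, minus strand).
ID1: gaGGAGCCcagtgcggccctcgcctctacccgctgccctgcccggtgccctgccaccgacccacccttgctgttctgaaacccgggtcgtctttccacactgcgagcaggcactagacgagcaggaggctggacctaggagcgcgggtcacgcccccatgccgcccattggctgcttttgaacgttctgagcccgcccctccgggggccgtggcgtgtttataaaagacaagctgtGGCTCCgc
ID3: cgcGGCTCCgcggtcttcggcgtCAGACca
SMAD6: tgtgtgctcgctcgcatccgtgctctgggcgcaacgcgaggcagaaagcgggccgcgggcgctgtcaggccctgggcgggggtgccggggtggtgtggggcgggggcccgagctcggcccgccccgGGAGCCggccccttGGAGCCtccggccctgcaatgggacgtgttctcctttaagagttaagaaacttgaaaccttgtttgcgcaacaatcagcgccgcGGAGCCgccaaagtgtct

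GGAGCC starts at -248 and -14 from the RefSeq start of ID1, at -167 for ID3, and at -124, -110 and -26 for SMAD6. It was found for 8 of the 9 members, the exception being ID2. By window, it was found in 8 of the 11 member windows and in 36.0% of all 35116 windows of the table. CAGAC was found for 6 of the 9 members, in 7 of the 11 member windows and in 45.3% of all windows. In ID3 it starts at -147. The palindrome GGCGCC, also described for the BMP SMADs, was found for BAMBI and BMPR2, in 2 of the 11 member windows and in 19.2% of all windows. The EGR-type run GCGNGGGCG was found for 4 members, ID2 among them, in 4 of the 11 member windows and in 9.4% of all windows. These matches describe letters in a short window. They do not show binding, distal elements were not searched and the GC content of the windows was not matched.

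The ID genes were expressed at very different levels. Per kilobase of exon, ID2 was the most abundant of the 4 in all 6 groups, at a mean of 31.5 CPM per kb in THP-1 empty vector cells, where ID1 stood at 5.97 and ID3 at 5.91. ID4 had 0 counts in 17 of the 18 libraries and 2 counts in the remaining one, empty vector with Adavivint 1. A count of 0 over the 3 libraries of a group allows up to 0.0147 to 0.0242 CPM, by counting error alone. ID4 was not tested, and the counts below are over the other 9 members. Among the feedback genes, BMPR2 was the most abundant per kilobase in THP-1 empty vector cells (3.50 CPM per kb), followed by SMAD6 (2.75), SMAD7 (2.63), NOG (2.60), BAMBI (2.28) and SMAD9 (0.439). Neighbours in the order from SMAD6 to BAMBI did not differ by more than the spread of their libraries.

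**Figure D1:**
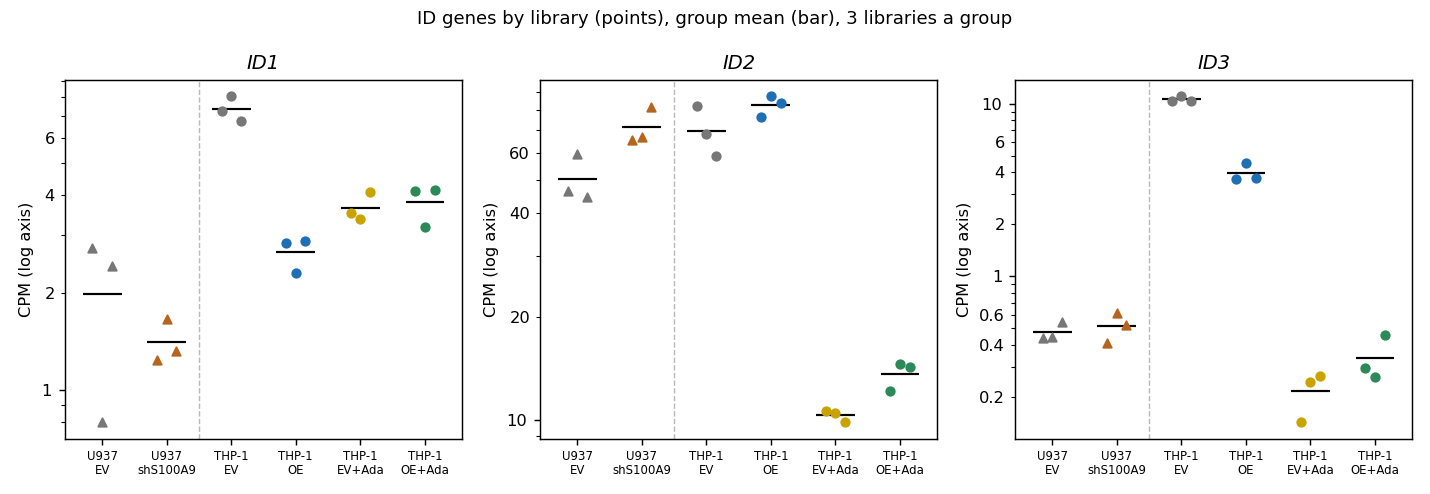
CPM of ID1, ID2 and ID3 in each library (points, log axis) with the group mean (bar) for the 2 U937 groups (triangles) and the 4 THP-1 groups (circles), where EV is empty vector, OE is S100A9 overexpression and Ada is Adavivint. ID3 spans 10.3 to 11.1 CPM in THP-1 empty vector cells and 0.143 to 0.264 CPM after Adavivint.

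ID1 and ID3 were lower in S100A9-overexpressing THP-1 cells, the values for which they were picked. ID1 was at 7.26, 8.06 and 6.76 CPM in the empty vector libraries and at 2.84, 2.29 and 2.88 CPM with overexpression. The groups did not overlap, and the fitted log2 fold change was -1.47 (SE 0.15), 2.76-fold lower. ID3 was at 10.4, 11.1 and 10.3 CPM with empty vector and at 3.68, 4.55 and 3.69 CPM with overexpression. Again every overexpression library lay below every control library, with a log2 fold change of -1.41 (SE 0.16), 2.67-fold lower. ID2 did not share this pattern. Its libraries read 82.2, 68.0 and 58.5 CPM with empty vector and 76.0, 87.6 and 83.7 CPM with overexpression, with overlapping ranges and a log2 fold change of 0.25 (SE 0.10).

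The feedback genes differed by less in overexpression. SMAD6 was at 26.2, 22.7 and 21.6 CPM with empty vector and at 15.9, 16.0 and 15.2 CPM with overexpression. All 3 overexpression libraries were lower, at a log2 fold change of -0.58 (SE 0.09). BAMBI was at 5.78, 5.54 and 4.53 CPM and then at 3.76, 3.58 and 3.77 CPM, also without overlap (log2 fold change -0.52, SE 0.13). SMAD7, which restrains TGF-beta as well as BMP receptors, was at 13.6, 14.6 and 11.6 CPM against 10.2, 9.97 and 10.9 CPM (log2 fold change -0.35, SE 0.09). It also did not overlap, and the log2 fold change was -0.33 without overexpression 2 and -0.28 without empty vector 2, neither of which would pass the threshold. SMAD9 ran the other way. This receptor-activated SMAD is itself a BMP target and a weak transducer; it was at 2.02, 2.64 and 2.89 CPM with empty vector and at 3.60, 4.24 and 4.20 CPM with overexpression, all higher (log2 fold change 0.68, SE 0.15). NOG was at 4.38, 4.83 and 5.58 CPM against 7.06, 6.28 and 6.79 CPM, without overlap (log2 fold change 0.45, SE 0.23). BMPR2 overlapped, at 35.4 to 46.0 CPM against 39.7 to 46.5 CPM.

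By the threshold used for all genes (adjusted p under 0.05), 1 member was higher and 5 were lower of the 9, where 28.0% of all 15403 genes tested were called (14.9% higher and 13.0% lower). Since these members were chosen with this contrast known, nothing is read from that count or from groups that did not overlap. The share of all genes without overlap is not given here. The members' median log2 fold change was -0.35, against 0.02 over all genes. In bulk RNA, fewer cells expressing a gene and less RNA per cell cannot be told apart.

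**Figure D2:**
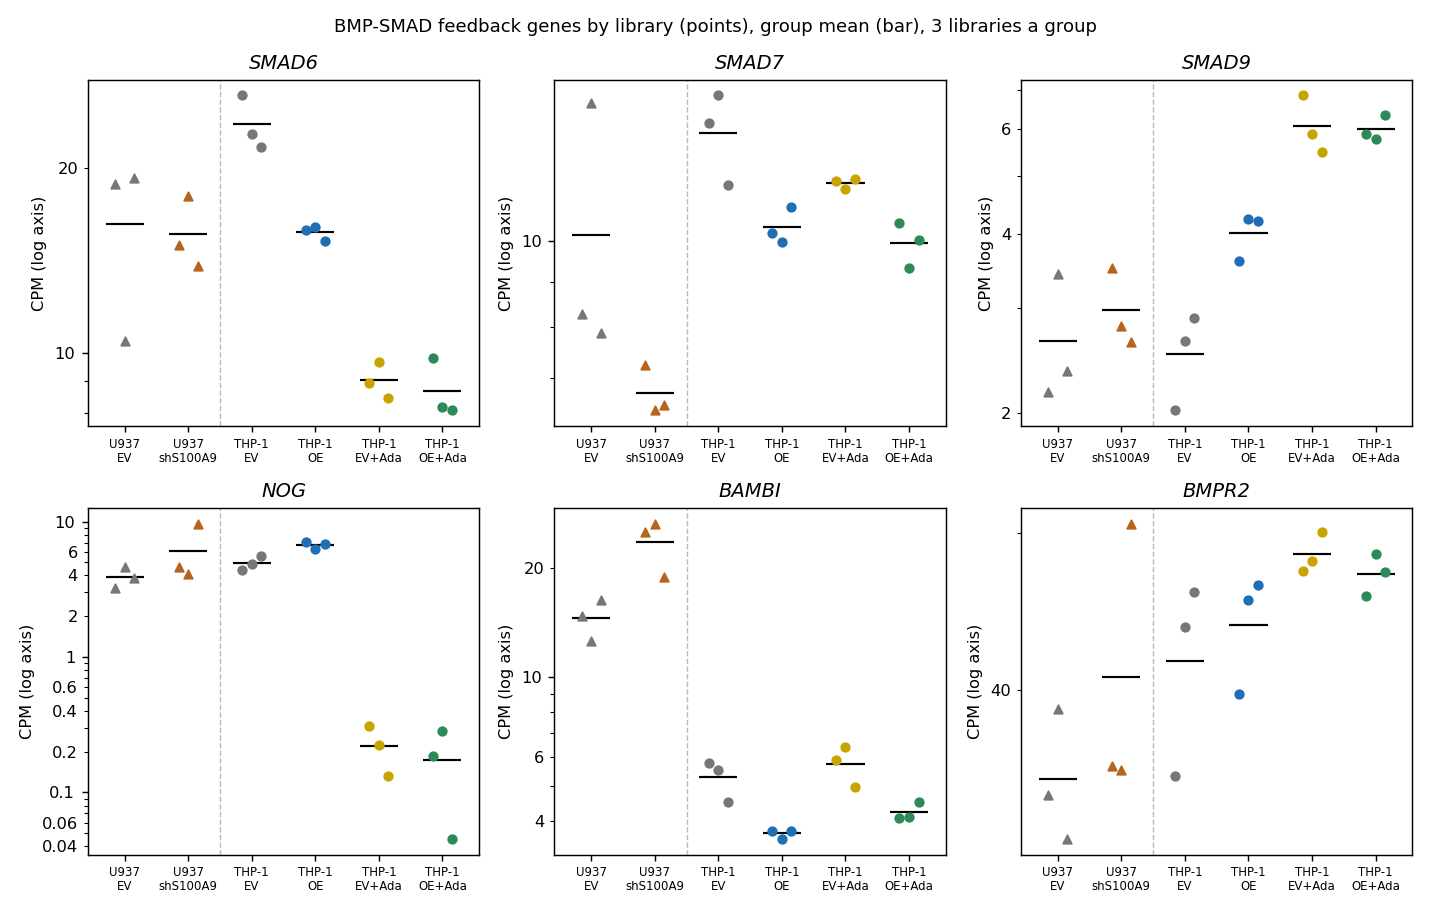
CPM of the 6 feedback genes in each library (points, log axis, a separate scale per gene) with the group mean (bar); triangles are U937 and circles THP-1, and EV, OE and Ada mean empty vector, S100A9 overexpression and Adavivint. NOG lies at 0.0455 to 0.309 CPM in the 6 Adavivint libraries, while BMPR2 lies between 45.7 and 50.1 CPM in them.

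The differences with Adavivint were largest for ID3, ID2 and NOG among the members tested, and exceeded those with overexpression. For ID3 they were part of how it was chosen. SMAD6 also differed more with the drug than with overexpression in both vector groups. ID3 was left at 0.143, 0.245 and 0.264 CPM in empty vector cells with the drug, from 10.3 to 11.1 CPM without it, a log2 fold change of -5.59 (SE 0.22) or 48.1-fold. These libraries held 6, 11 and 12 reads of ID3, so the low end is set by few counts. In overexpressing cells ID3 was at 0.293, 0.259 and 0.455 CPM with the drug, 11.6-fold lower than without (log2 fold change -3.54, SE 0.21). ID2 also sat far below its untreated range. It was at 10.7, 10.5 and 9.86 CPM in empty vector cells with Adavivint and at 12.2, 14.6 and 14.3 CPM in overexpressing cells. The log2 fold changes were -2.75 (SE 0.12) and -2.59 (SE 0.11), or 6.73-fold and 6.03-fold lower.

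ID1 differed in opposite directions with the drug in the 2 vector groups. With Adavivint it was at 3.52, 3.36 and 4.07 CPM in empty vector cells, all below the untreated 6.76 to 8.06 CPM (log2 fold change -1.01, SE 0.15). In overexpressing cells it was at 4.11, 3.19 and 4.14 CPM, all above the untreated 2.29 to 2.88 CPM (log2 fold change 0.52, SE 0.15). The treated groups overlapped each other.

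NOG was also lower with the drug, 22.2-fold in empty vector cells and 39.4-fold in overexpressing cells. It was at 0.309, 0.223 and 0.132 CPM with Adavivint in empty vector cells and at 0.187, 0.285 and 0.0455 CPM in overexpressing cells, where the lowest library held 2 reads. The log2 fold changes were -4.47 (SE 0.32) and -5.30 (SE 0.34). SMAD6 was at 8.96, 9.68 and 8.45 CPM and at 9.81, 8.17 and 8.07 CPM with the drug, below every untreated THP-1 library (log2 fold changes -1.38, SE 0.10, and -0.86, SE 0.10). SMAD9 was at 6.84, 5.90 and 5.50 CPM and at 5.89, 5.79 and 6.34 CPM, above every untreated library (1.28, SE 0.15, and 0.58, SE 0.15). SMAD7, BAMBI and BMPR2 showed the smallest differences of the feedback genes. Their log2 fold changes in empty vector cells were -0.19 (SE 0.09), 0.12 (SE 0.13) and 0.22 (SE 0.09), and in overexpressing cells -0.06 (SE 0.09; 0.00 with DESeq2 size factors), 0.20 (SE 0.13) and 0.10 (SE 0.09).

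In empty vector cells 2 members were called higher and 5 lower with Adavivint, where 85.3% of all genes tested were called (44.2% higher and 41.1% lower). In overexpressing cells 2 were higher and 4 lower, where 84.7% of all genes were called (43.4% higher and 41.3% lower). With so many genes called, and with the drug contrast used in choosing the members, these counts say nothing particular about them. All levels are shares of the sequenced RNA, so a difference in RNA per cell would not show. Small drug differences also depend on scaling: with DESeq2 size factors the all-gene median log2 fold change moved by 0.045 in empty vector and 0.063 in overexpressing cells. With library totals alone it moved the other way, by -0.003 and -0.066. The members' medians were -1.01 and -0.06, against 0.06 and 0.04 over all genes. BMPR2, one of the higher members in empty vector cells, would fall outside the threshold without empty vector with Adavivint 2 or 3 (log2 fold changes 0.22 and 0.20) or without empty vector 1 (0.11). Both drug comparisons and both vector comparisons reuse the same 4 groups, so their values are set side by side and not correlated.

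**Figure D3:**
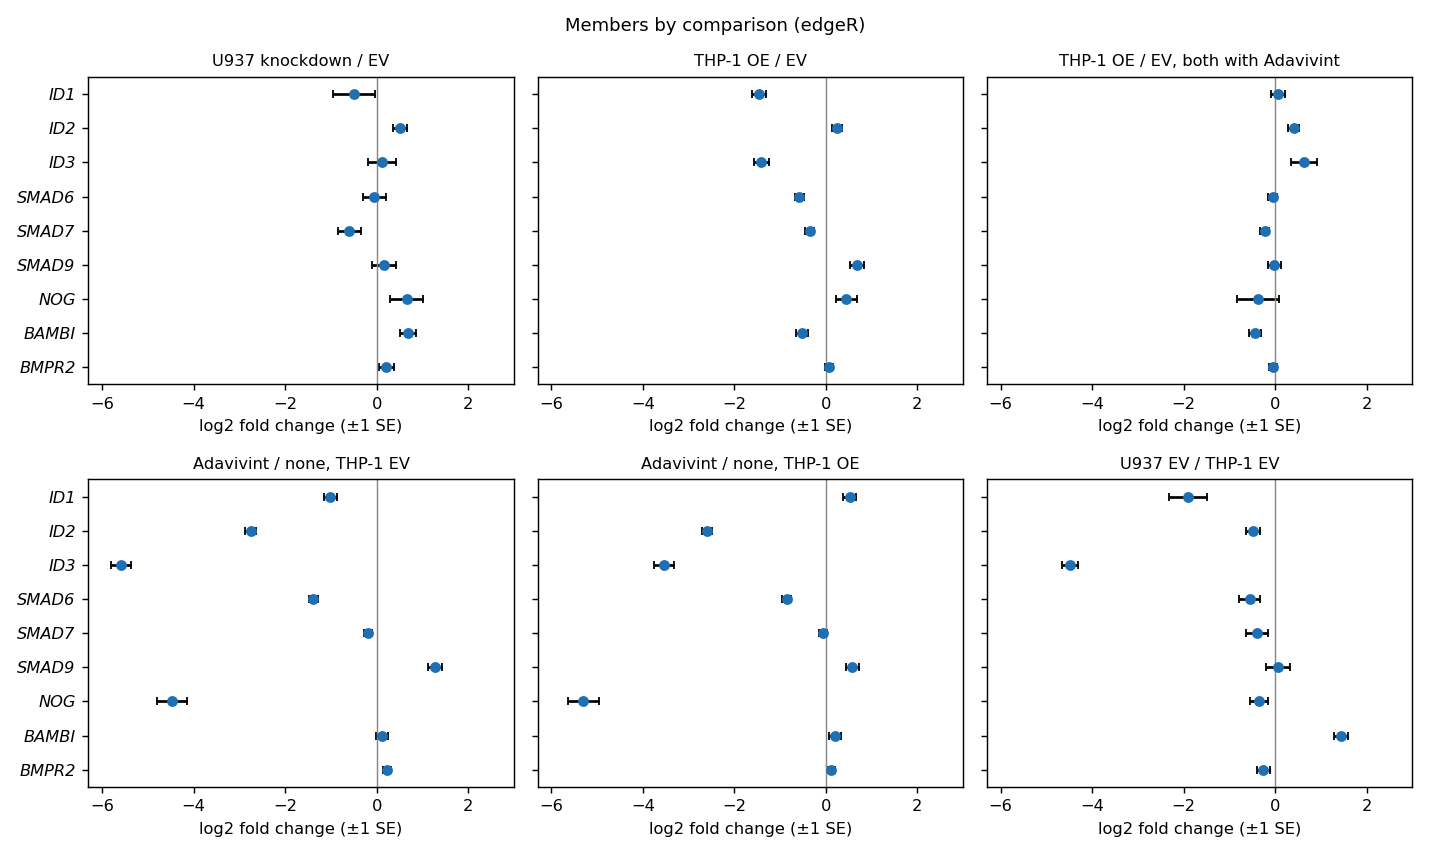
Log2 fold change (points) with 1 SE (bars) of the 9 members with enough counts in 6 comparisons, EV being empty vector and OE S100A9 overexpression. ID3 and NOG reach -5.59 and -5.30 with Adavivint, while in the U937 knockdown all 9 members lie between -0.59 and 0.69.

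Under Adavivint, the fitted values of ID1 and ID3 were not lower with overexpression. This comparison was not named in choosing the members. ID3 was known to be low with Adavivint, however, and both groups compared here had the drug. The ID3 value is therefore a description, although ID3 is among the 9 members counted next. None of the 9 passed the threshold in the edgeR quasi-likelihood test with Benjamini-Hochberg adjustment, where 8.50% of all genes did (3.69% higher and 4.80% lower). Of all genes called, 43.5% were higher, and 20.2% when libraries were scaled by their totals alone. At an unadjusted p under 0.05 there were 3 members, BAMBI, SMAD7 and ID2, and DESeq2 called BAMBI and ID2. ID1 differed by 0.06 on the log2 scale (SE 0.15, adjusted p = 0.850 in edgeR). ID3 differed by 0.63 (SE 0.29), at 10 to 20 reads against 6 to 12. ID2 was higher in all 3 overexpression libraries, 12.2 to 14.6 CPM against 9.86 to 10.7 CPM, with a log2 fold change of 0.40 (SE 0.12) and an adjusted p of 0.0512 in edgeR. Other settings moved ID2 across the threshold (adjusted p = 0.00523 with DESeq2, 0.0214 with the 6 compared libraries alone). BAMBI was lower in all 3 libraries, 4.08 to 4.52 CPM against 4.97 to 6.39 CPM (log2 fold change -0.44, SE 0.13, adjusted p = 0.0573 in edgeR), and passed without empty vector with Adavivint 3 (-0.54, adjusted p = 0.0322). SMAD6 (-0.06, SE 0.10), SMAD7 (-0.23, SE 0.09), SMAD9 (-0.02, SE 0.15), NOG (-0.38, SE 0.46) and BMPR2 (-0.04, SE 0.09) had adjusted p-values from 0.157 to 0.963.

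The change of the drug effect with the vector, as an interaction term over the 12 THP-1 libraries, put numbers on this difference. It was 1.53 on the log2 scale for ID1 (SE 0.21) and 2.04 for ID3 (SE 0.33), which restate the values that chose them. SMAD6 had an interaction of 0.53 (SE 0.14, adjusted p = 0.0183 in edgeR), its drug difference being the smaller decrease in overexpressing cells. SMAD9 had one of -0.69 (SE 0.21, adjusted p = 0.0332 in edgeR), its drug difference being the smaller increase there. The overexpression difference of SMAD6 was -0.58 without the drug and -0.06 with it, and that of SMAD9 0.68 and -0.02. Both terms thus come mostly from the untreated overexpression contrast, which was known when the set was chosen. Their p-values and the fits below are therefore not independent support. The SMAD6 call held in all 12 fits that left out 1 library. The SMAD9 call was lost in 7 of the 12. These were the fits without overexpression with Adavivint 1 (-0.68) or 2 (-0.67), overexpression 2 (-0.65) or 3 (-0.66), empty vector with Adavivint 1 (-0.60) or 2 (-0.71), or empty vector 1 (-0.56), at adjusted p-values up to 0.0818. ID2 (0.16, SE 0.16), SMAD7 (0.13, SE 0.13), NOG (-0.83, SE 0.52), BAMBI (0.07, SE 0.19) and BMPR2 (-0.12, SE 0.12) did not pass. Over the 9 members 3 interactions were higher and 1 lower, where 19.3% of all genes were called (8.04% higher and 11.2% lower). Of all genes called, 41.7% were higher, and 28.8% when libraries were scaled by totals alone.

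**Figure D4:**
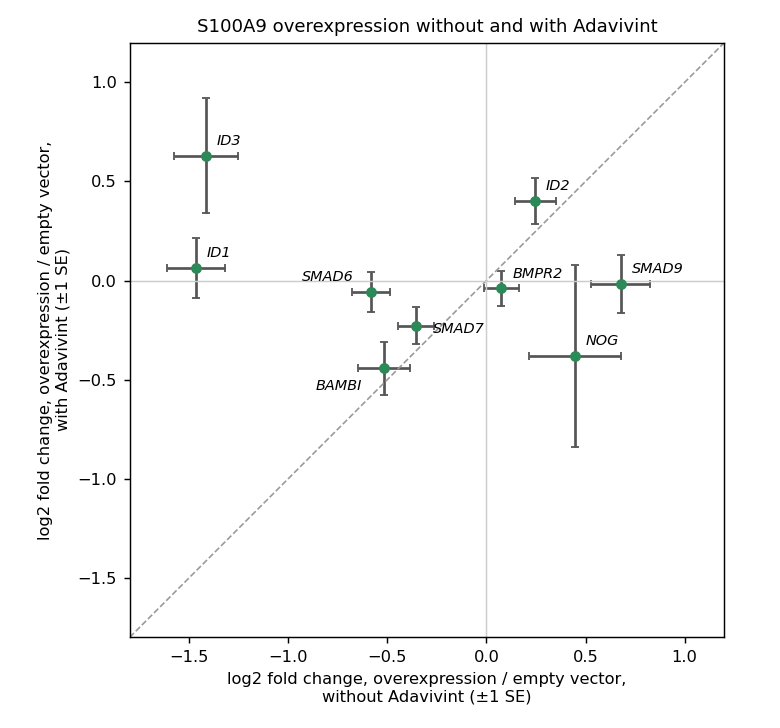
Log2 fold change of S100A9 overexpression against empty vector without Adavivint (horizontal) and with it (vertical) for 9 members, with 1 SE bars; the dashed line marks equal changes. ID1 lies at -1.47 and 0.06, ID3 at -1.41 and 0.63, and BAMBI close to the line at -0.52 and -0.44.

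In U937 cells the knockdown of S100A9 was tested as a comparison that did not choose the members. None of the 9 passed in edgeR, where 1.77% of all 13016 genes did (0.230% higher and 1.54% lower). At an unadjusted p under 0.05 there were 2, BAMBI and ID2, and DESeq2 called 1, BAMBI (adjusted p = 0.0110). BAMBI was at 14.7, 12.5 and 16.3 CPM with empty vector and at 25.2, 26.4 and 18.9 CPM with shS100A9. All knockdown libraries were higher, with a log2 fold change of 0.69 (SE 0.17, adjusted p = 0.128 in edgeR). ID2 was at 46.5, 59.6 and 44.6 CPM against 65.3, 66.7 and 81.4 CPM, also higher in all 3 (log2 fold change 0.50, SE 0.15, adjusted p = 0.200 in edgeR). ID1 was at 2.75, 0.796 and 2.41 CPM against 1.24, 1.66 and 1.32 CPM (log2 fold change -0.49, SE 0.46, adjusted p = 0.700 in edgeR). Here empty vector 2 was the lowest library of all, and the remaining control libraries lay above every knockdown library. SMAD7 mirrored this, at 8.27, 14.3 and 7.87 CPM against 7.25, 6.43 and 6.52 CPM, with empty vector 2 the highest (log2 fold change -0.59, SE 0.26).

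Leaving out empty vector 2 and shS100A9 3 together changed the calls. ID1 (-0.82, adjusted p = 0.0360 in edgeR), ID2 (0.54, adjusted p = 0.000393) and BAMBI (0.74, adjusted p = 0.000469) then passed, 3 of the 9. The same step raised the calls over all genes from 231 to 4296. Leaving out any single U937 library called no member. It did move the ID1 value, to -0.87 without empty vector 2, to -0.18 without empty vector 1 and to -0.33 without empty vector 3. ID3 was scarce in U937, at 0.438, 0.447 and 0.540 CPM against 0.412, 0.615 and 0.524 CPM (log2 fold change 0.12, SE 0.30). NOG was at 3.21 to 4.60 CPM against 4.09 to 9.62 CPM, its highest value being shS100A9 3. SMAD6 (-0.05, SE 0.25), SMAD9 (0.17, SE 0.26) and BMPR2 (0.21, SE 0.17) had overlapping groups.

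Among the 9 members the lines differed most in ID3. In the empty vector cells ID3 was 22.4-fold lower in U937 than in THP-1 (log2 fold change -4.49, SE 0.17), with no overlap. ID1 was 3.76-fold lower in U937 (-1.91, SE 0.42). It would fall outside the threshold without THP-1 empty vector 1 (-1.93) or 2 (-1.84), and was at -1.53 without U937 empty vector 2. BAMBI was 2.72-fold higher in U937 (1.45, SE 0.15, adjusted p = 0.000714 in edgeR). With ID1 and ID3 counted, 1 member was higher and 2 lower, where 26.2% of all 13695 genes were called (11.4% higher and 14.8% lower). DESeq2 called 4 members, ID2 being added as lower (adjusted p = 0.0240). In edgeR ID2 (-0.48, SE 0.15, adjusted p = 0.0618), SMAD6 (-0.55, SE 0.23), SMAD7 (-0.40, SE 0.25), NOG (-0.36, SE 0.20), BMPR2 (-0.26, SE 0.13) and SMAD9 (0.06, SE 0.26) did not pass. Without U937 empty vector 2 there were 6 called members, with ID2 (-0.63), SMAD6 (-0.32) and SMAD7 (-0.74) joining as lower. Line and any handling that differed between the lines cannot be told apart.

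The rest of the pathway was read from lists of ligands, receptors, SMADs, antagonists, regulators, targets, bHLH partners and ERK-response genes. These lists were also chosen with earlier results of these data known, so their counts and p-values below are not independent support. SMAD1, the receptor-activated SMAD that shares its role with SMAD5, had 0 counts in all 6 U937 libraries and stood at a mean of 4.20 ± 0.88 CPM (SD, n = 3) in THP-1 empty vector cells. Against the floor of 3 counts over the U937 empty vector group this is at least 197-fold lower in U937. SMAD5 was present in both, at 34.2 ± 3.4 CPM in U937 and 33.5 ± 0.95 CPM in THP-1 empty vector cells (SD, n = 3). GATA2, a haematopoietic factor and SMAD-responsive gene, was 4.13-fold lower in U937 (adjusted p = 0.000212 in edgeR). The bHLH factor TWIST1 and the homeobox gene MSX2, both SMAD-responsive in other tissues, had 0 counts in U937 empty vector cells and were at least 172-fold and 57-fold lower there. BMP8B, a ligand gene, was 12.8-fold lower in U937 (adjusted p = 0.000143); it has a near-identical neighbour, BMP8A, and reads may have been split between them.

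In the knockdown no ligand, receptor, signalling SMAD, secreted antagonist, SMAD-responsive target or bHLH partner passed in edgeR, of 53 tested, with 7 at an unadjusted p under 0.05 and 2 called by DESeq2. Leaving out empty vector 2 and shS100A9 3 raised the calls over all genes from 231 to 4296. The absence of list calls is therefore stated only for the fit with those libraries. One regulator was lower, LDLRAD4, an inhibitor of SMAD2 and SMAD3 activation (-1.37, SE 0.23, adjusted p = 0.0410), but the call held only in the fit without shS100A9 3 of the 6 that left out 1 library (log2 fold changes -1.52 to -1.16). SPRED1, an inhibitor of RAS-ERK signalling, had 3 reads against 904, a ratio of 437 (95% counting interval 149 to 2123) and an adjusted p of 0.00737 in edgeR.

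With overexpression 34 of the 116 pathway genes tested passed, 16 higher and 18 lower, where 28.0% of all genes were called. Of 5 signalling SMADs, 2 were higher, SMAD3 (0.33, SE 0.08, adjusted p = 0.00761 in edgeR) and SMAD4 (0.23, SE 0.06, adjusted p = 0.0109; 0.17 and adjusted p = 0.0589 without overexpression 3). Of 16 receptors tested 3 were higher and 1 lower. Among them the activin receptor ACVR2B was higher (0.46, SE 0.07, adjusted p = 0.000753), and endoglin, ENG, a co-receptor of TGF-beta and BMP signalling, was lower (-0.48, SE 0.08, adjusted p = 0.000819). Of 13 SMAD-responsive targets outside the members, 1 was higher (RUNX2, 0.53, SE 0.10, adjusted p = 0.00205) and 3 lower, GATA2 among them (-0.68, SE 0.11, adjusted p = 0.000853). Of 10 secreted antagonists tested outside the members none passed in edgeR, with 1 at an unadjusted p under 0.05 and 1 by DESeq2. NOG, a member, was not called in edgeR either. The ERK and serum-response list had 2 higher and 9 lower of 23, led by SPRY4 (-1.58, SE 0.18, adjusted p = 8.5e-05) and DUSP5 (-0.85, SE 0.14, adjusted p = 0.000913), both feedback inhibitors of that pathway; FOS was higher (0.48, SE 0.07, adjusted p = 0.000661). Beside this, 3 of 4 tested epithelial markers, KRT14, KRT17 and CLDN7, were higher, and the summed level of 8 such markers was 10.2 to 11.5 CPM against 3.38 to 5.95 CPM, with KRT19 at 0 in both groups. Their part in the members' values was not tested.

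With Adavivint 98 of the 116 pathway genes tested passed in empty vector cells and 96 in overexpressing cells, where 85.3% and 84.7% of all genes were called. The ligands had 12 higher and 5 lower of 19 in empty vector cells, with NODAL 36.3-fold and MSTN 34.0-fold higher and BMP8B 4.26-fold lower. GREM1, a secreted BMP antagonist like NOG, ran opposite to NOG. It had 0 counts in untreated empty vector cells and 24.5 ± 6.5 CPM (SD, n = 3) with the drug, at least 1314-fold higher against the floor of 3 counts over the group. Receptors split, 8 higher and 5 lower of 16, with the type II receptor ACVR2A 7.51-fold higher and ENG 4.14-fold lower. SMAD4 was 2.28-fold and SMAD2 1.47-fold higher, and SMAD5 1.22-fold lower. FKBP1A, which binds type I receptors and holds them inactive, showed the largest decrease among the regulators, from 384 ± 42 to 18.6 ± 0.90 CPM (SD, n = 3), 20.7-fold (adjusted p = 4.4e-14 in edgeR). Of the E proteins that ID proteins bind, TCF3 was 2.48-fold and TCF12 2.44-fold lower. TAL1, a haematopoietic bHLH factor that pairs with E proteins, was 121-fold higher from a level under 0.1 CPM.

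The ERK and serum-response list had 6 higher and 15 lower of 23 in empty vector cells with Adavivint and 8 higher and 14 lower in overexpressing cells, beside 85.3% and 84.7% of all genes called in either direction. DUSP6, a phosphatase that inactivates ERK, was 15.8-fold and 15.0-fold lower. Some markers of other cell types also moved with the drug. The summed level of 7 lymphoid markers was 42.4 to 44.7 CPM against 81.8 to 95.9 CPM in empty vector cells and 46.2 to 51.5 CPM against 67.2 to 76.1 CPM in overexpressing cells. Most of that sum was NKG7, which was lower, at means of 32.1 against 75.0 CPM in empty vector cells and 34.8 against 59.2 CPM in overexpressing cells, while CD8A was higher in both from under 0.1 CPM. The sum of 10 stromal and endothelial markers was 83.6 to 93.1 CPM against 125 to 145 CPM in empty vector cells. Most of it was PECAM1, at means of 86.3 against 132 CPM. The 9 erythroid and platelet markers summed to at most 3.39 CPM in any library, with HBB at 0 in 5 of the 6 groups. Their part in the members' values was not tested.

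Of the 116 pathway genes outside the 10 members, 21 had an interaction of vector and drug that passed, 11 higher and 10 lower, where 19.3% of all genes did. SPRY4 (1.60, SE 0.25, adjusted p = 0.0015 in edgeR), DUSP5 (1.17, SE 0.21, adjusted p = 0.0031), FOSL1 (1.65, SE 0.35, adjusted p = 0.0074) and GATA2 (1.14, SE 0.15, adjusted p = 0.000664) had interactions of the sign seen for ID1, ID3 and SMAD6. MSTN (-1.33, SE 0.27, adjusted p = 0.00533) and ACVR2B (-0.61, SE 0.10, adjusted p = 0.00212) had the sign seen for SMAD9. These 6 calls held in all 12 fits that left out 1 library. Under Adavivint, 6 of the 116 were higher and 2 lower with overexpression, where 8.50% of all genes were called, with BMP8B (0.37, SE 0.07, adjusted p = 0.00607) and IER5 (0.37, SE 0.06, adjusted p = 0.00231) among the higher.

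The genes whose levels over the 18 libraries were most like ID1, among 10500 genes with a mean of at least 5 CPM, were CTDP1 (Pearson r of log2(CPM + 0.5) = 0.929), CANT1 (0.917) and LRRC14 (0.909). CTDP1 was at a mean of 58.8 CPM in THP-1 empty vector cells, 45.5 CPM with overexpression and 32.7 CPM in U937 with shS100A9. Those most like ID3 were HYCC1 (0.960), ITM2C (0.957) and DHRS9 (0.953). DHRS9, a retinol dehydrogenase, was at 36.6 to 39.4 CPM in THP-1 empty vector libraries, 22.7 to 25.4 CPM with overexpression, 0.726 to 1.64 CPM with Adavivint and 2.04 to 4.28 CPM in U937 empty vector libraries. The 18 points fall into 6 groups, so these values describe group differences.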

How the data were processed

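The authors deposited 1 table of whole-number read counts per gene for the 18 libraries, per the file headers, with Ensembl gene IDs; 18642 of 18670 IDs matched a symbol. HISAT2 2.0.4 is named in the submitters' processing notes; no source used here names the counter, annotation, build or strand setting. The members and gene lists were chosen with earlier results of these data known.

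Counts were fitted with edgeR 4.0.16 (R 4.3.3, limma 3.58.1): filterByExpr, TMM scaling and the quasi-likelihood F test, with Benjamini-Hochberg adjustment over all genes tested and a threshold of 0.05. The 6 U937 libraries (13016 genes), the 12 THP-1 libraries (15403 genes) and the 6 untreated empty vector libraries (13695 genes) were fitted separately. The SE of a fold change was derived from the F statistic (absolute value over the root of F). The functions were tested on simulated data. Alternatives were DESeq2 1.42.0, other scalings and filters, a replicate block and leaving libraries out. Floors and intervals cover counting error only; the labels name no molecular identifiers.

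Named genes were all 10 members, S100A9, up to 3 called genes per pathway list and comparison with the smallest p and at least 1 CPM, and the 3 genes most like ID1 and ID3. The lists held ligands, receptors, signalling SMADs, antagonists, regulators, targets, bHLH partners, ERK-response genes and markers of myeloid, erythroid, lymphoid, epithelial and stromal cells. RefSeq promoter windows were searched on both strands.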

Additional observations from a re-analysis of the deposited data

Results flagged for a closer look

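The results below are listed because the Adavivint response differed between vectors by a test of the difference itself. This was the interaction term of edgeR over the 12 THP-1 libraries with Benjamini-Hochberg adjustment. Values are the log2 response in overexpressing cells minus that in empty vector cells. Over all genes 19.3% had a called interaction, and 21 of the 116 pathway genes did. The pathway genes were thus not called more often than all genes, and their lists were chosen with earlier results known. Among the members the called interactions were SMAD6 (0.53) and SMAD9 (-0.69). Both come mostly from the untreated overexpression contrast, which was known when the set was chosen. As given above, the SMAD6 call held in all fits that left out 1 library, and the SMAD9 call was lost in most of them.

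Among ligands they were BMP8B (0.47), MSTN (-1.33) and TGFB2 (-1.20), and among receptors and co-receptors ACVR2B (-0.61), NEO1 (-0.42) and ENG (0.39). The signalling SMAD was SMAD3 (-0.38), and the regulators were FKBP1A (0.53) and ZFYVE9 (-0.34). The SMAD-responsive targets were GATA2 (1.14) and JUNB (0.46), and the E protein was TCF12 (-0.33). The ERK-response genes were SPRY4 (1.60), DUSP5 (1.17) and FOSL1 (1.65). In the 12 fits that left out 1 library, JUNB kept its call in 3, ENG in 5, TGFB2 and SMAD3 in 7 and ZFYVE9 in 9; without empty vector 1 the JUNB value was 0.28.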

How the results depend on the processing

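No named value changed sign while called. The number of members called moved by over 1.5 times in 3 comparisons, and by 1 member at most in the other 4 under the settings run. In the U937 knockdown it was 0, 1 with DESeq2 and 3 without empty vector 2 and shS100A9 3. For overexpression under Adavivint it was 0, 1 with DESeq2 size factors in edgeR, 2 with library totals, 2 with DESeq2, 1 with at least 1 CPM in 3 libraries, 1 with the 6 compared libraries alone, and 0 to 1 when 1 library was left out. Between the lines it was 3, 4 with DESeq2, and 2 to 6 when 1 library was left out, the 6 coming without U937 empty vector 2. The cause was not tested. Over all genes, the knockdown count was 231, against 879 with DESeq2, 4296 without both libraries and 18 to 362 without 1. Overexpression gave 4307, and 2735 without overexpression 2. Overexpression under Adavivint gave 1309, against 1948 with library totals, 2026 with DESeq2 and 502 to 1174 without 1 library. The interaction gave 2968, and 1885 without overexpression 2. The line comparison gave 3583, with 6111 without U937 empty vector 2 and 2122 and 2355 without THP-1 empty vector 2 and 3. Replicate numbers did not pair the libraries: same-number correlations of deviations ran from -0.58 to 0.38, and only for Adavivint in overexpressing cells (0.060 to 0.121) did every library correlate best with its own number. With the replicate block the knockdown count over all genes was 3; no other count, over all genes or members, moved by over 1.5 times. ID3 and NOG under Adavivint rest on 2 to 20 reads a library, which limits their folds.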
